A study of Mus musculus with 15 samples.

Results

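The p53 targets, senescence genes and cell cycle brakes described here are 35 genes of the p53 network in mouse kidney. They were chosen by symbol from a list of known p53 targets, p53 controllers and inhibitors of cyclin-dependent kinases, and all 35 were found among the 23866 gene rows of the count table. Kidneys came from male C57BL/6 mice, with 1 library per numbered kidney sample. The CCl4+EtOH group (n = 3) received carbon tetrachloride (CCl4), a solvent that injures liver and kidney, by intraperitoneal injection over 6 weeks and then 4 weeks of ethanol (EtOH). The EtOH group (n = 4) received the vehicle, olive oil, over 6 weeks and the same 4 weeks of ethanol. The CCl4 group (n = 4) was injected with CCl4 over 6 weeks, and 2 of its mice with a reduced dose in another 4 weeks. The OO group (n = 3) received olive oil for 6 weeks. The labels give no age, ethanol route or CCl4 dose, and they leave unsettled whether CCl4 went on during the ethanol weeks of the CCl4+EtOH mice. The OO mice have no counterpart of the last 4 weeks, so in comparisons with OO the ethanol and the added time cannot be told apart. The CCl4 mice had either no such weeks or a reduced CCl4 dose in them. In comparisons with CCl4, the ethanol, the added time and the CCl4 schedule therefore cannot be told apart.

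The transcription factor p53, encoded by Trp53, is held low in unstressed cells by the ubiquitin ligase Mdm2 and its partner Mdm4. DNA damage and other stress release it, mostly by slowing its breakdown, and it then switches on genes that halt the cell cycle, repair DNA or start cell death. In kidney the pathway is known for its activity in tubule cells after toxic or ischaemic injury, and lasting arrest of such cells, called senescence, is marked by the inhibitors p21 (Cdkn1a) and p16 (Cdkn2a).

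Binding sites for p53 are built of a pair of decamers. RefSeq promoter windows (GRCm38.p6, 250 bases before to 50 after a transcript start) were at hand for 28 of the 35 genes, in 39 windows. They were not at hand for Trp53inp1, Perp, Pmaip1, Zmat3, Rrm2b, Ddb2 and Xpc. The windows printed here are those of Cdkn1a, which rose and held a site, of Ccng1, which held a site and did not pass the test, and of Eda2r, which had the largest fold change of the members and held none. Letters are in capitals where they match the p53 decamer exactly or belong to a pair of decamers with at most 2 mismatches and at most 13 bases between them.
Cdkn1a, upstream start, chr17:29090729-29091028, + strand: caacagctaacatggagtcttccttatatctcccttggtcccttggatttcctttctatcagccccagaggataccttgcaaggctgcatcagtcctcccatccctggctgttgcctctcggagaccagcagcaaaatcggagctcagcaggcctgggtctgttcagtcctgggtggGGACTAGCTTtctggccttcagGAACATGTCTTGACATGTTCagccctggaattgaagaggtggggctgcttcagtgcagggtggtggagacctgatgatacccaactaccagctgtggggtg
Ccng1, chr11:40755237-40755536, - strand: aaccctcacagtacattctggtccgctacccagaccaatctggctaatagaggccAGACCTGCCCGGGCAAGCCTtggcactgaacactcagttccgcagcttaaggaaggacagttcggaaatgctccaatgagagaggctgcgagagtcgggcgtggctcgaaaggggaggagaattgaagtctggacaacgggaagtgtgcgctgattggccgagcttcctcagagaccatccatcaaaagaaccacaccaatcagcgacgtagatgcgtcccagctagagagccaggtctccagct
Eda2r, chrX:97377160-97377459, - strand: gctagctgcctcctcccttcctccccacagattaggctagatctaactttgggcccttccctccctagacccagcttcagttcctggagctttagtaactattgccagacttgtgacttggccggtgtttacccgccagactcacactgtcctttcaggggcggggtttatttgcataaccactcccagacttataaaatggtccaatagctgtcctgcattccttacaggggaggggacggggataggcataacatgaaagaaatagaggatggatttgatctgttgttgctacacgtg

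A paired p53 site was found in windows of 6 members, or 21.4% of the 28 genes, against 4.71% of all 27025 genes with a window. An exact decamer was found in 11 members, or 39.3%, against 9.55% of all genes. The decamer reads alike on both strands, and the members are mostly known p53 targets, so the higher share is not a finding. The other paired sites are shown to compare their letters, each with its 300-base window in GRCm38.p6 and its position from the transcript start, and with bases between the decamers in lower case.
Bax, chr7:45466849-45467148, - strand, from -201 to -181: AGGCAAGCTTtGAACTTGCGG
Gtse1, chr15:85859696-85859995, + strand, from -1 to 19: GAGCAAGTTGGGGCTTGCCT
Gadd45a, chr6:67037358-67037657, - strand, from -56 to -31: GGACCTGGTTggctgaGGGCTAGCCC
Sesn1, chr10:41887189-41887488, + strand, from -186 to -164: GCGCTTGGCCttcAAGCTTGTTT
Genes that rose and genes that did not pass the test, described below, are found on both sides of this split. Among members that rose, Cdkn1a, Bax and Gtse1 held a paired site and Eda2r, Apaf1 and Btg2 did not, and among those that did not pass, Ccng1, Gadd45a and Sesn1 held a site. Sites beyond these windows were not examined.

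Other motifs were searched on both strands. TGACGTCA, the cAMP response element, was found in Btg2, Plk2 and Cdkn2b, or 10.7% of member genes, against 2.03% of all. CCAAT was found in 64.3% of member genes against 41.1%, TTTGAA in 17.9% against 20.2%, and TTTCCCGC in 3.57% against 1.24%. Members had 39 windows for 28 genes, and all genes 32851 windows for 27025, which can raise a share per gene. Per window the shares were 7.69% against 1.79% for TGACGTCA and 53.8% against 37.4% for CCAAT. For TTTGAA they were 12.8% against 17.9% and for TTTCCCGC 2.56% against 1.07%. The members are a chosen set, and these differences were not tested. The TTTGAA of Bax lies within its p53 site.

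Library totals lay between 16356512 and 23545275 counts. Summed markers of 9 proximal tubule genes ranged from 5890 to 16900 counts per 1000000 counts (CPM) in CCl4+EtOH kidneys and from 15000 to 19000 CPM in the other groups, and none of the 9 was at 0 in any group. CCl4+EtOH replicate 3 stood apart from the other CCl4+EtOH mice, with 4630 CPM over 6 injured tubule markers against 37000 and 26900 CPM in replicates 1 and 2. The same markers summed to 680 to 1190 CPM in OO, 815 to 1030 CPM in EtOH and 958 to 1330 CPM in CCl4 kidneys. All of these sums were below that of CCl4+EtOH replicate 3. EtOH replicates 1 to 3 held adrenal transcripts, with 782 to 1260 CPM over 11 adrenal markers, and EtOH replicate 4 held 8.81 CPM. In OO kidneys those markers summed to between 6.61 and 7.99 CPM, with Cyp11b1, Cyp11b2, Th, Dbh and Pnmt at 0. In such bulk samples, fewer cells of a type and less RNA per cell cannot be told apart.

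The comparison of CCl4+EtOH with OO asks how the network stood after both exposures. Of the 34 members that passed the filter on low counts, 17 rose and 2 fell in CCl4+EtOH kidneys at an adjusted p under 0.05 (edgeR quasi-likelihood test, Benjamini-Hochberg over all 16105 genes tested). Over all genes tested 18.9% rose and 16.6% fell. The members' median log2 change was 0.42, against 0.0244 over all genes, and 11 of the 17 that rose did so by over 2-fold. The lowest count of a tested member in any library was 14. Fitted with only the 6 libraries compared, 11 members rose and none fell, with 1807 genes higher and 1469 lower in all, and with a block for high or low title numbers 9 rose and 1 fell.

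**Figure D1:**
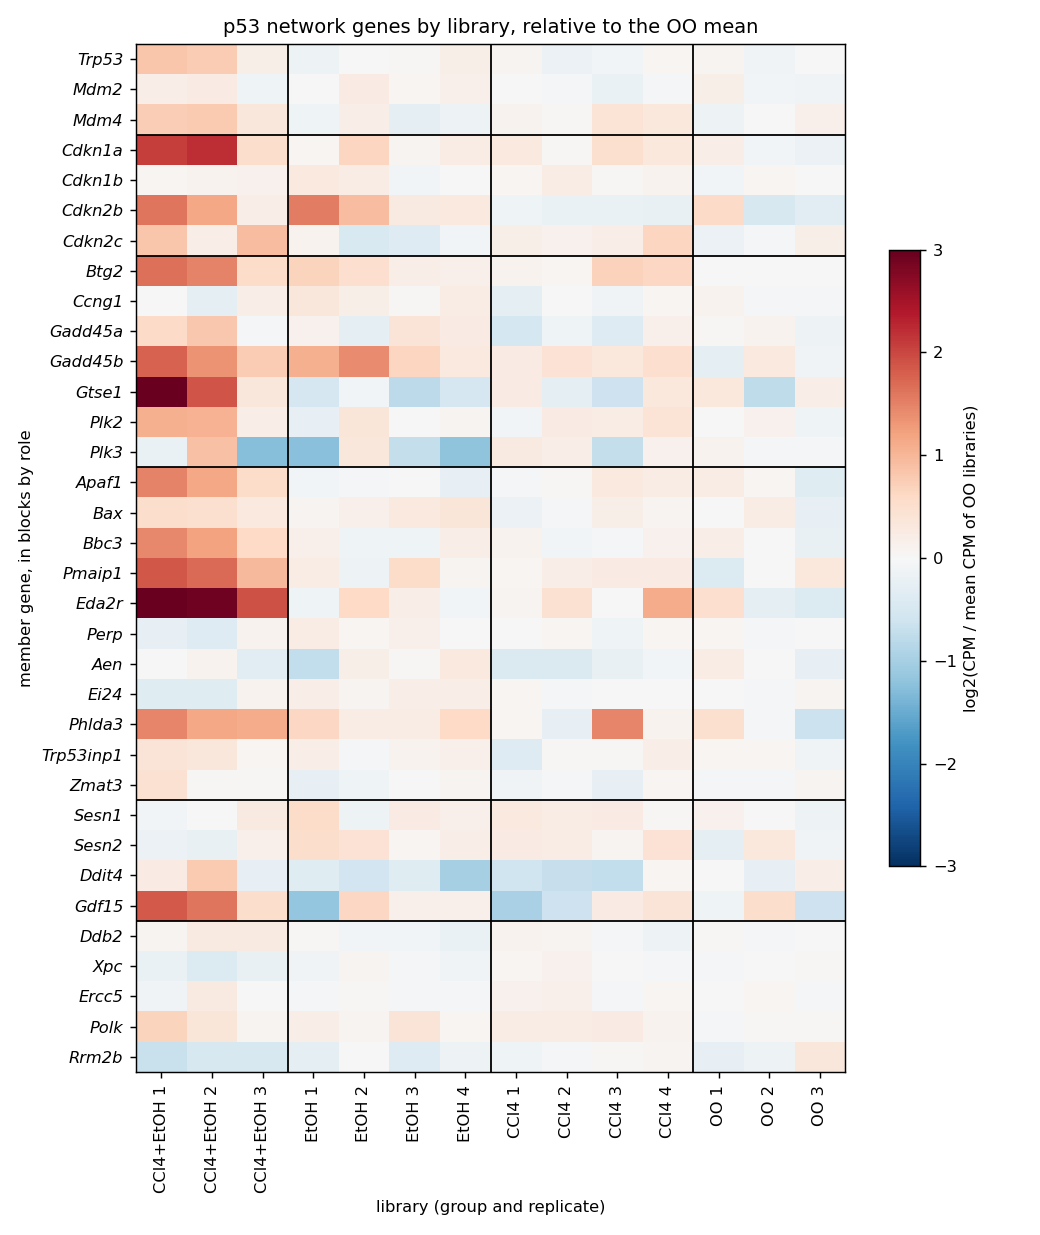
Level of 34 members in each of 14 libraries as log2 of CPM over the mean of the OO libraries, with genes in blocks by role (p53 and its controllers, CDK inhibitors, other cell cycle brakes, cell death, stress metabolism and secreted factors, DNA repair and nucleotide supply). The strongest colours are in CCl4+EtOH replicates 1 and 2, where Eda2r, Gtse1 and Cdkn1a are highest, and replicate 3 is paler in most rows.

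Among p53 and its controllers, Trp53 and Mdm4 rose and Mdm2 did not pass the test. Trp53 stood at 46.0, 44.3 and 29.3 CPM in CCl4+EtOH kidneys and at 27.6, 24.2 and 26.1 CPM in OO kidneys. The groups did not overlap, but replicate 3 was close to the OO mice. The log2 change was 0.62 ± 0.15 (SE, adjusted p = 0.00535), and the call was lost with only the groups compared and with the title number block. Mdm4, which binds p53 and blocks its activity, stood at 45.4, 47.2 and 34.5 CPM in CCl4+EtOH kidneys against 24.6, 27.1 and 30.3 CPM in OO kidneys, a log2 change of 0.63 ± 0.15 (adjusted p = 0.00487) that was lost with the title number block. Mdm2 is both the ligase of p53 and a p53 target. It stood at 72.3, 74.4 and 57.3 CPM in CCl4+EtOH kidneys and at 71.0, 59.8 and 58.4 CPM in OO kidneys, so the groups overlapped. Its log2 change was 0.11, and 2 SE to either side spans -0.11 to 0.33.

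Inhibitors of cyclin-dependent kinases (CDKs) rose in 3 of 4 tested cases, where 18.9% of all genes rose. Cdkn1a, whose protein p21 binds cyclin-CDK complexes and is the best known arrest target of p53, stood at 36.1, 40.2 and 12.5 CPM in CCl4+EtOH kidneys. In OO kidneys it stood at 10, 8.22 and 7.70 CPM. The groups did not overlap, and replicates 1 and 2 stood well above replicate 3. The log2 change was 1.78 ± 0.33 (adjusted p = 0.0015), and Cdkn1a remained past the threshold in all 24 alternatives run. Cdkn2c, the INK4 inhibitor p18, stood at 14.4, 9.24 and 15.4 CPM in CCl4+EtOH kidneys against 7.16, 7.82 and 9.16 CPM in OO kidneys. It was the only member that rose for which CCl4+EtOH replicate 3 was not the lowest of its group, and replicate 2 lay just above the highest OO library. The log2 change was 0.69 ± 0.21 (adjusted p = 0.02) and was lost in 6 alternatives.

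Cdkn2b, the INK4 inhibitor p15, stood at 4.09, 2.99 and 1.55 CPM in CCl4+EtOH kidneys and at 1.99, 0.972 and 1.08 CPM in OO kidneys, with overlap. Its adjusted p of 0.0484 was the largest among the members called, and it held in 11 of 24 alternatives. Cdkn1b, the inhibitor p27 that accumulates in resting cells, averaged 42.4 ± 1.13 CPM in CCl4+EtOH kidneys and 39.7 ± 1.75 CPM in OO kidneys (SD, n = 3 each), a log2 change of 0.09 between bounds of -0.09 and 0.27 at 2 SE. Cdkn2a, the locus of p16 and of the p53 activator Arf, had between 0 and 2 counts in each of the 14 libraries and 16 in all. It was not tested, and a change in it was not detectable at this depth.

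**Figure D2:**
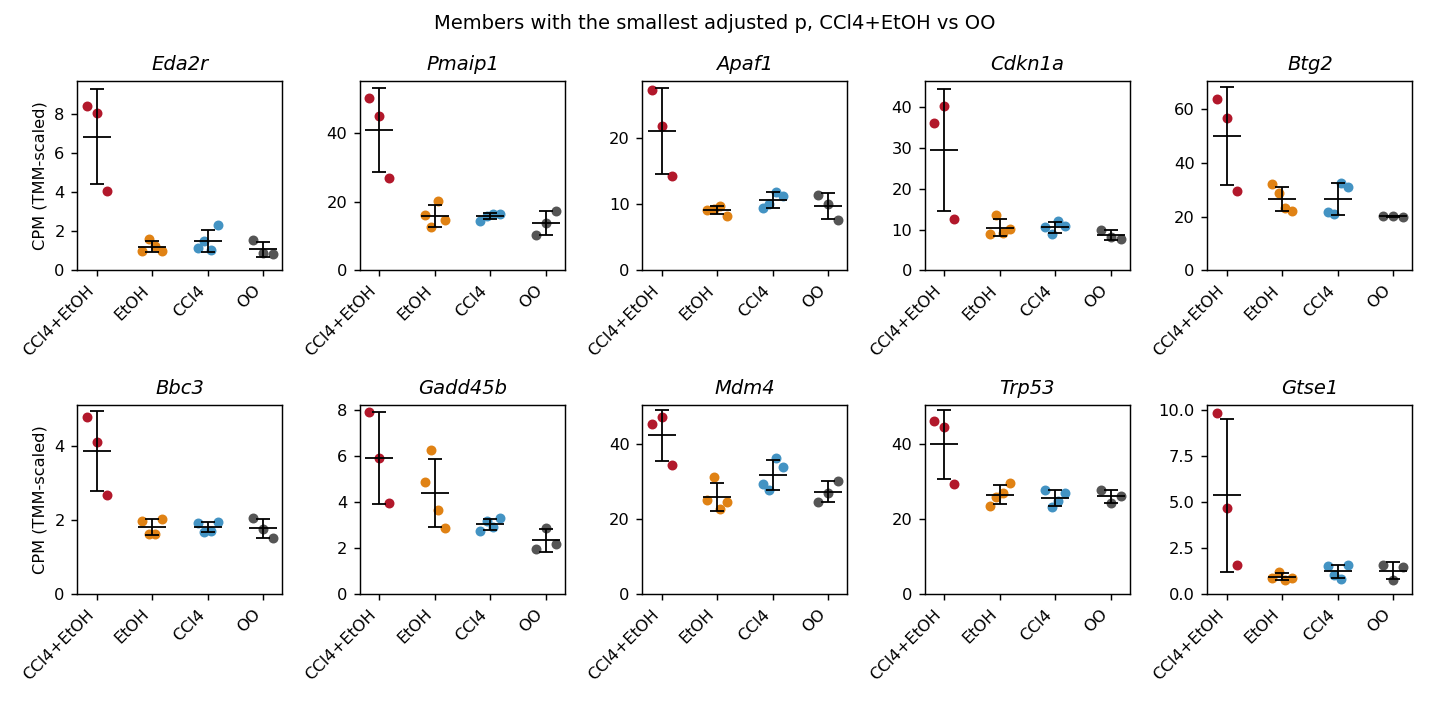
CPM of the 10 members with the smallest adjusted p in CCl4+EtOH vs OO, by group. Each point is a mouse, the bar is the mean and the whisker the SD (n = 3 for CCl4+EtOH and OO, 4 for EtOH and CCl4). In each panel except Gadd45b, whose EtOH libraries reach 6.23 CPM, CCl4+EtOH replicates 1 and 2 lie above all libraries of the other 3 groups.

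Of 7 other members grouped as cell cycle brakes 4 rose and none fell, against 18.9% and 16.6% of all genes. Gtse1 is counted among those that rose, although it moves p53 out of the nucleus, as described below. Btg2, an antiproliferative p53 target that is also an immediate early gene, stood at 63.6, 56.7 and 29.4 CPM in CCl4+EtOH kidneys. In OO kidneys it stood at 20.2, 20.3 and 19.9 CPM, a narrow range below every CCl4+EtOH library. Btg2 changed by 1.31 ± 0.25 on the log2 scale (adjusted p = 0.0019). Gadd45b, a stress sensor that signals to MAP kinases, stood at 7.91, 5.89 and 3.93 CPM in CCl4+EtOH kidneys against 1.94, 2.87 and 2.17 CPM in OO kidneys, a log2 change of 1.34 ± 0.30 (adjusted p = 0.00397), with no overlap. Both remained past the threshold in all 24 alternatives.

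Gtse1, which is expressed in G2 and M phase and moves p53 out of the nucleus, stood at 9.81, 4.64 and 1.60 CPM in CCl4+EtOH kidneys. In OO kidneys it stood at 1.58, 0.751 and 1.46 CPM, so replicate 3 was barely above OO replicate 1. The log2 change was 2.09 ± 0.51 (adjusted p = 0.00684) and was lost with only the groups compared and with the title number block. Proliferation genes moved with it: Mki67 averaged 63.7 ± 62.5 CPM in CCl4+EtOH kidneys and 3.94 ± 0.58 CPM in OO kidneys (SD, n = 3 each), and the part of dividing cells in the rise of Gtse1 was not tested. Plk2, a polo-like kinase of the centrosome, stood at 31.7, 30.9 and 17.3 CPM in CCl4+EtOH kidneys against 15.2, 16.4 and 13.7 CPM in OO kidneys, a log2 change of 0.82 ± 0.21 (adjusted p = 0.00836).

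The other brakes gave no call. Ccng1, cyclin G1, a p53 target that feeds back on p53 through Mdm2, stood at 306, 250 and 351 CPM in CCl4+EtOH kidneys and at 330, 295 and 299 CPM in OO kidneys. The CCl4+EtOH libraries lay on both sides of the OO libraries, with a log2 change of -0.03 and bounds of -0.29 and 0.23 at 2 SE. Gadd45a averaged 40.4 ± 11.3 CPM in CCl4+EtOH kidneys and 28.7 ± 2.66 CPM in OO kidneys (SD, n = 3 each, adjusted p = 0.0917). Plk3 was the most scattered, at 9.22, 19.4 and 4.40 CPM in CCl4+EtOH kidneys and 11.4, 10.3 and 10.2 CPM in OO kidneys. Exons of Gadd45a, Plk3 and Ddb2 overlap those of E230016M11Rik, Tctex1d4 and Acp2 on the opposite strand in GENCODE M21, and since the use of strand is not given their reads cannot be told apart. Exons of Cdkn1a, Ei24 and Rrm2b overlap other annotated genes on the opposite strand, and those of Bax a gene on the same strand. These other genes have no row in the count table.

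Of 11 cell death genes 6 rose and none fell, against 18.9% and 16.6% of all genes. Eda2r, a death receptor of the TNF receptor family, had the largest change of the members. It stood at 8.42, 8.07 and 4.06 CPM in CCl4+EtOH kidneys, against 1.53, 0.883 and 0.813 CPM in OO kidneys. Every CCl4+EtOH library, replicate 3 included, was above every library of the other 3 groups. Its log2 change of 2.68 ± 0.37 was 6.41-fold (adjusted p = 0.000305). Pmaip1 (Noxa), a BH3-only protein that neutralises Mcl1, stood at 50.4, 45.1 and 27.0 CPM in CCl4+EtOH kidneys against 10.4, 13.8 and 17.3 CPM in OO kidneys. That was a log2 change of 1.56 ± 0.23 (adjusted p = 0.000425), again with all 3 CCl4+EtOH libraries above all others.

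Bbc3 (Puma), the other BH3-only target of p53 on the list, stood at 4.81, 4.12 and 2.68 CPM in CCl4+EtOH kidneys and at 2.05, 1.77 and 1.52 CPM in OO kidneys. On the log2 scale it rose by 1.12 ± 0.24 (adjusted p = 0.00298). Apaf1, the scaffold of the apoptosome that activates caspase-9, stood at 27.3, 21.8 and 14.3 CPM in CCl4+EtOH kidneys against 11.4, 10.1 and 7.59 CPM in OO kidneys, a log2 change of 1.13 ± 0.20 (adjusted p = 0.00119). Neither gene overlapped between the groups, and replicate 3 was the lowest CCl4+EtOH library for each. Bax, which permeabilises mitochondria, rose less, to 45, 43.6 and 38.7 CPM in CCl4+EtOH kidneys against 31.0, 36.5 and 26.5 CPM in OO kidneys (log2 change 0.44 ± 0.13, adjusted p = 0.0153). Phlda3, which blocks Akt at the membrane, averaged 13.1 ± 1.71 CPM in CCl4+EtOH kidneys and 5.47 ± 2.08 CPM in OO kidneys (SD, n = 3 each), with a log2 change of 1.26 ± 0.38 (adjusted p = 0.0214). The calls of Bax and Phlda3 were each lost in 4 alternatives, among them those without CCl4+EtOH replicate 1 and without OO replicate 3.

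The remaining 5 cell death genes did not pass. Perp, a desmosomal membrane protein, stood at 56.8, 51.6 and 72.6 CPM in CCl4+EtOH kidneys and at 69.7, 64.8 and 66.5 CPM in OO kidneys. Aen, a nuclease, averaged 23.3 CPM in CCl4+EtOH kidneys against 24.5 CPM in OO kidneys, Ei24 141 against 160 CPM and Zmat3, an RNA-binding splicing regulator, 43.9 against 38.6 CPM. Trp53inp1, a cofactor of p53 and of autophagy, averaged 76.1 CPM in CCl4+EtOH kidneys against 63.3 CPM in OO kidneys without overlap (log2 change 0.27 ± 0.13, adjusted p = 0.119). For Perp and Ei24, CCl4+EtOH replicates 1 and 2 were below all OO libraries while replicate 3 was above them, and both were called lower without replicate 3 and by limma-voom. Over all members, 18 had CCl4+EtOH libraries all above OO and 2 all below, or in all genes tested 22.9% above and 20.8% below.

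**Figure D3:**
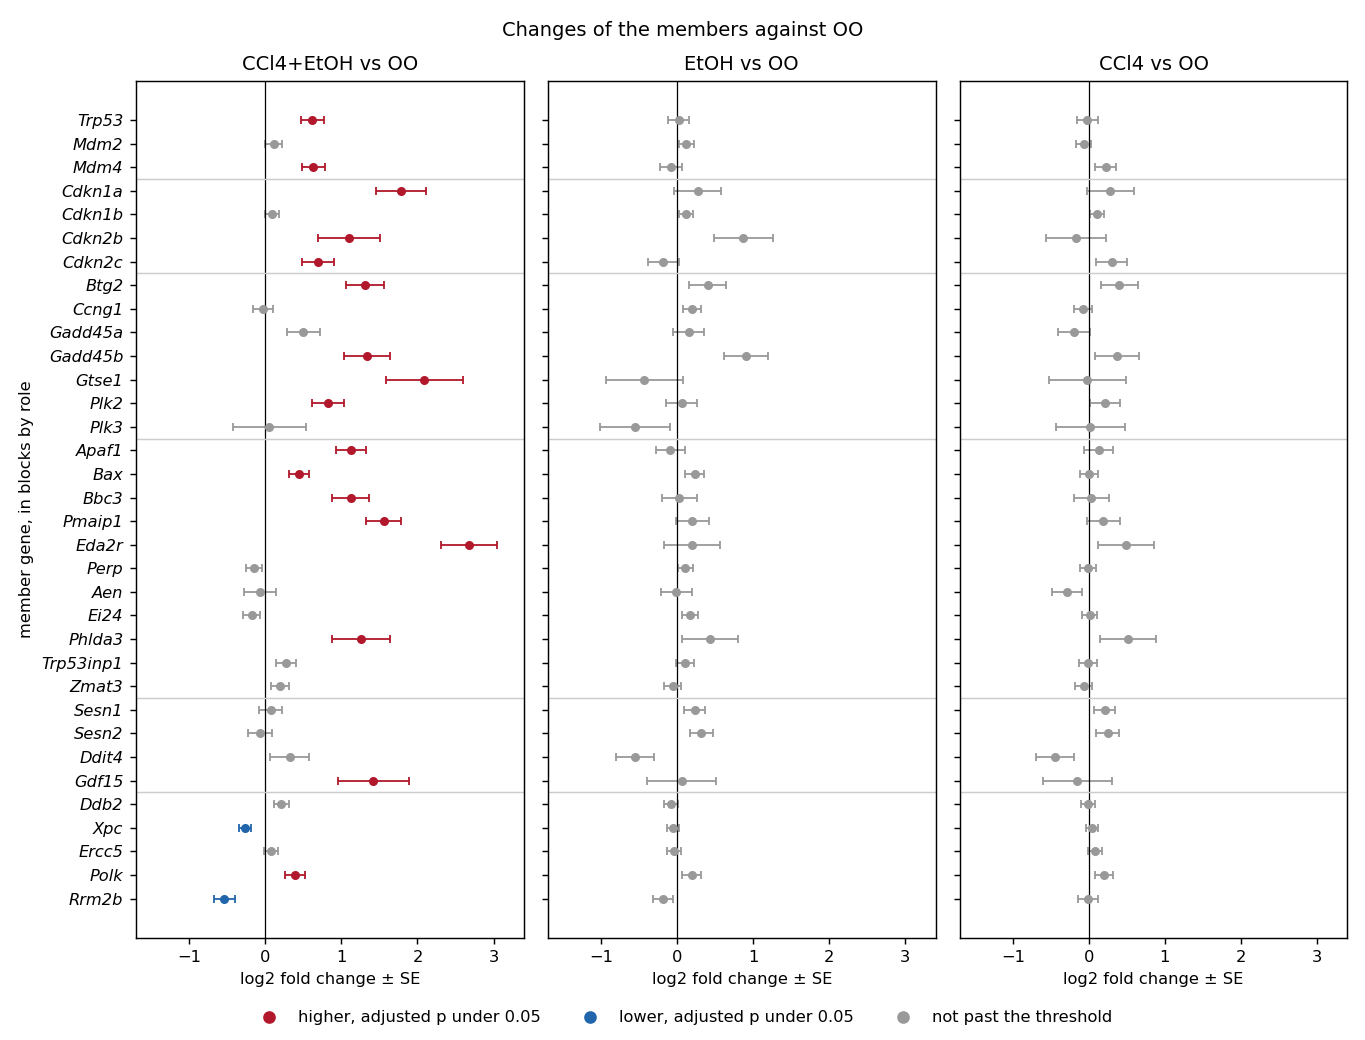
Log2 fold change ± SE of 34 members against OO, for CCl4+EtOH, EtOH and CCl4, from the fit of all 14 libraries. In the left panel 17 genes are red (higher) and 2 are blue (lower), and in the other panels all genes are grey, with changes between -0.55 and 0.91 for EtOH and between -0.45 and 0.51 for CCl4.

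Of the stress metabolism and secreted genes Gdf15 rose. Gdf15, a stress cytokine, stood at 20, 16.9 and 7.99 CPM in CCl4+EtOH kidneys and at 5.10, 7.95 and 3.63 CPM in OO kidneys, so replicate 3 was level with OO replicate 2. A log2 change of 1.42 ± 0.47 (adjusted p = 0.0308) was 0.16 with the title number block, and the call was also lost without CCl4+EtOH replicates 1 or 2 or OO replicates 1 or 3. Sesn1 and Sesn2, sestrins that restrain the growth kinase mTORC1, averaged 21.7 and 38.6 CPM in CCl4+EtOH kidneys and 20.7 and 40.5 CPM in OO kidneys. Ddit4 (Redd1), another inhibitor of mTORC1, stood at 25.1, 36.8 and 17.8 CPM in CCl4+EtOH kidneys against 21.5, 18 and 24.3 CPM in OO kidneys, with overlap.

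DNA repair and nucleotide supply was the only role in which members fell. Rrm2b, the p53-induced subunit of ribonucleotide reductase, stood at 26.5, 30.1 and 30.1 CPM in CCl4+EtOH kidneys. In OO kidneys it stood at 35.4, 37.6 and 53.2 CPM, all above the CCl4+EtOH libraries. Rrm2b had a log2 change of -0.54 ± 0.14 (adjusted p = 0.00848), and the call was lost with only the groups compared. Xpc, which finds distorted DNA for nucleotide excision repair, stood at 52.9, 45.4 and 51.4 CPM in CCl4+EtOH kidneys against 58.2, 60.5 and 62.3 CPM in OO kidneys. Its log2 change of -0.27 ± 0.08 (adjusted p = 0.0189) was lost in 5 alternatives. Polk, a translesion polymerase, rose by 0.39 ± 0.13 on the log2 scale (adjusted p = 0.0308), lost in 7 alternatives. Ddb2, the damage sensor that works with Xpc, averaged 23.0 ± 1.67 CPM in CCl4+EtOH kidneys and 19.9 ± 0.72 CPM in OO kidneys (SD, n = 3 each, adjusted p = 0.101), and the excision nuclease Ercc5 27.9 and 26.5 CPM.

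**Figure D4:**
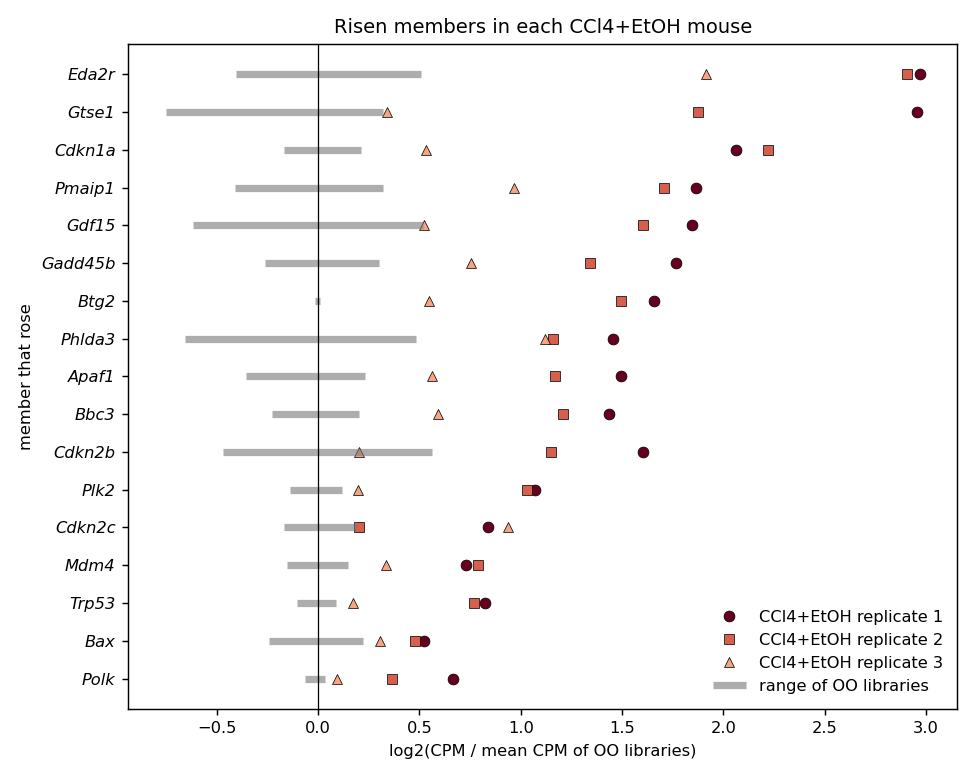
Log2 of CPM over the OO mean for the 17 members that rose, in each CCl4+EtOH mouse (points), with the range of the OO libraries as grey bars. Replicate 3 is the leftmost point in 16 of the 17 genes, and it lies beyond the grey bar in 16.

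The size of the rise differed between CCl4+EtOH mice. Over the 17 members that rose, the median log2 ratio to the OO mean was 1.49 in replicate 1, 1.17 in replicate 2 and 0.53 in replicate 3. Replicate 1 was highest in 14 of the 17 genes and replicate 3 lowest in 16. In replicate 3, 16 of the 17 were still above all OO libraries, Cdkn2b being the exception. Proximal tubule markers were at 16900 CPM in that library, against 5890 and 6020 CPM in replicates 1 and 2. Of 9 macrophage markers 8 rose, and their sum was 714, 849 and 610 CPM in CCl4+EtOH kidneys against 228 to 341 CPM in OO kidneys. Of 6 fibroblast and pericyte markers 3 rose, with sums of 681 to 1610 CPM in CCl4+EtOH kidneys against 338 to 743 CPM in OO kidneys. None of 7 tested T and NK cell markers, 6 B and plasma cell markers or 3 tested neutrophil markers passed. The part of any cell type in the members' changes was not tested. Without replicate 3, 18 members were higher and 4 lower, with 7417 genes called in all.

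The CCl4+EtOH mice can also be set against mice given ethanol alone for the same weeks. Here 14 members were higher and 2 lower in CCl4+EtOH kidneys, against 18.1% and 16.2% of all genes, with a median log2 change of 0.32 over members and 0.00148 over all genes. Eda2r stood at 0.991, 1.63, 1.23 and 1.01 CPM in EtOH kidneys, all below the CCl4+EtOH values above, and the log2 change was 2.48 ± 0.33 (adjusted p = 0.000311). Apaf1 at 9.12, 9.30, 9.71 and 8.24 CPM was likewise lower in every EtOH library (log2 change 1.22 ± 0.19, adjusted p = 0.00055). Cdkn1a stood at 8.97, 13.5, 9.08 and 10.1 CPM in EtOH kidneys, so that EtOH replicate 2 was above CCl4+EtOH replicate 3. Its log2 change was 1.51 ± 0.30 (adjusted p = 0.00225). Without CCl4+EtOH replicate 2, 10 members and 3195 genes in all were called against EtOH.

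Ddit4 and Ddb2 were called higher against EtOH and not against OO. Ddit4 stood at 16.4, 14.4, 16.4 and 10.7 CPM in EtOH kidneys, below all CCl4+EtOH libraries and also below the 3 OO libraries, and its log2 change in CCl4+EtOH over EtOH was 0.88 ± 0.24 (adjusted p = 0.0145). Ei24, a membrane protein of the endoplasmic reticulum that p53 induces, stood at 125, 125 and 173 CPM in CCl4+EtOH kidneys and at 183, 168, 182 and 183 CPM in EtOH kidneys, a log2 change of -0.34 ± 0.10 (adjusted p = 0.0204). Libraries of 10 members lay all above the EtOH libraries and of 2 all below, against 17.1% and 15.3% of all genes. Of the members called against OO, Bax, Phlda3, Polk, Rrm2b, Cdkn2b and Gadd45b gave no call here. Cdkn2b reached 3.92 CPM and Gadd45b 6.23 CPM in an EtOH library, and their log2 changes were 0.24 ± 0.36 and 0.42 ± 0.27. When the 3 EtOH libraries with adrenal transcripts were left out, no member was called and 335 genes were called in all, while the log2 change of Eda2r stayed within 2.31 and 2.75 over all alternatives.

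Against CCl4 alone, 16 members were higher and 2 lower in CCl4+EtOH kidneys, beside 18.7% and 16.2% of all genes. The members' median log2 change was 0.40, against 0.0213 over all genes. Ethanol, added time and CCl4 schedule cannot be told apart in this comparison. In 11 members all CCl4+EtOH libraries were above and in 2 all were below the CCl4 libraries, against 18.1% and 17% of all genes. Pmaip1 stood at 14.5, 15.8, 16.4 and 16.5 CPM in CCl4 kidneys, a tight range below every CCl4+EtOH library (log2 change 1.37 ± 0.21, adjusted p = 0.000483). Trp53 stood at 27.7, 23.1, 24.7 and 26.9 CPM in CCl4 kidneys, again without overlap (0.64 ± 0.14, adjusted p = 0.0029), and it remained past the threshold in all 24 alternatives here. Gadd45a was called in this comparison among the 3, with 19.9, 26.4, 22.1 and 32.0 CPM in CCl4 kidneys (0.69 ± 0.20, adjusted p = 0.0184). Without CCl4+EtOH replicate 1, 10 members and 3480 genes in all were called. Without replicate 3 it was 25 members and 7396 genes in all.

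These 3 comparisons share the CCl4+EtOH libraries, so their calls are not independent. Side by side, 11 members were higher in all 3, namely Trp53, Mdm4, Cdkn1a, Eda2r, Bbc3, Pmaip1, Gdf15, Plk2, Btg2, Gtse1 and Apaf1. Over all genes tested 13% were higher in all 3. Among the 11, Trp53, Cdkn1a and Gdf15 overlapped with EtOH libraries, Mdm4 with CCl4 libraries, and Plk2 and Btg2 with both. For Trp53, EtOH replicate 4 at 29.5 CPM was above CCl4+EtOH replicate 3 at 29.3 CPM. The others of the 11 overlapped in none of the 3 comparisons. Xpc was lower in all 3, as were 11% of all genes. No member was higher in a comparison and lower in another, 11 were called in 1 or 2, and 11 in none.

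Neither exposure alone gave a call among the members. For EtOH vs OO, 0 of 34 passed in edgeR, 3 had an unadjusted p under 0.05, and DESeq2 and limma-voom also called 0 members, beside 0.0807% of all genes higher and 0.0869% lower. The 3 were Gadd45b, at 4.86, 6.23, 3.63 and 2.85 CPM in EtOH kidneys against 1.94, 2.87 and 2.17 CPM in OO kidneys (adjusted p = 0.219), Ddit4 (adjusted p = 0.455) and Cdkn2b (adjusted p = 0.457). Ddit4 was lower in every EtOH library than in any OO library, with a log2 change of -0.55 ± 0.25. All EtOH libraries were above OO in Btg2 and Polk and below in Ddit4 alone, against 5.2% and 6.69% of all genes. Members' log2 changes lay between -0.55 and 0.91, and Cdkn1a was at 0.27 ± 0.31.

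For CCl4 vs OO, 0 of 34 members passed in edgeR, DESeq2 or limma-voom, none had an unadjusted p under 0.05, and 0% of all genes were called in edgeR. Log2 changes lay between -0.45 and 0.51. The CCl4 libraries were all above OO in 2 members, Btg2 and Polk, and all below in none, against 3.47% and 3.74% of all genes. Within the CCl4 group, replicates 3 and 4 (10 weeks in all) were both above replicates 1 and 2 (6 weeks) in 11 of the 34 members and both below in 6, beside 24.3% and 23.1% of all genes. Btg2 was at 32.5 and 30.9 CPM in replicates 3 and 4 and at 21.7 and 20.9 CPM in replicates 1 and 2, and Gdf15 at 6.56 and 7.30 CPM in replicates 3 and 4 and at 2.85 and 3.60 CPM in replicates 1 and 2. These examples were picked after their values were seen, and the difference between schedules was not tested.

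The interaction asks whether the change with CCl4 in ethanol-treated mice, CCl4+EtOH over EtOH, differed from the change with CCl4 in olive oil mice. It was positive and past the threshold for 5 members, Eda2r, Apaf1, Pmaip1, Ddit4 and Gtse1, and negative for none, beside 5.49% and 3.63% of all genes. Eda2r changed by 2.48 on the log2 scale in CCl4+EtOH over EtOH and by 0.49 in CCl4 over OO, a difference of 2 ± 0.49 (adjusted p = 0.0265). The difference was 1.33 ± 0.35 for Ddit4 (adjusted p = 0.0346), 1.08 ± 0.27 for Apaf1 (adjusted p = 0.0269), 1.18 ± 0.30 for Pmaip1 (adjusted p = 0.0315) and 2.54 ± 0.69 for Gtse1 (adjusted p = 0.0388). Ddit4 did not pass in CCl4+EtOH vs OO, with a log2 change of 0.32 ± 0.26 (adjusted p = 0.356). Its log2 changes against OO were -0.55 ± 0.25 in EtOH and -0.45 ± 0.25 in CCl4 kidneys, also not past the threshold. Cdkn1a missed the threshold for the interaction, at 1.23 ± 0.43 (adjusted p = 0.083). These calls depended on single libraries: no member was called without CCl4+EtOH replicates 1 or 2 or without CCl4 replicate 1, and 1 to 3 were called with any other single EtOH, CCl4 or OO library left out. Without OO replicate 2 none of the 5 was called, and the 1 call was negative (Sesn2). Without OO replicate 3, 2 calls were positive and 1 was negative (Rrm2b). Without CCl4+EtOH replicate 3, 13 calls were positive and 3 negative, with 4881 genes called in all. The count of all genes called also varied, from 292 to 4881 with a library left out.

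Genes around the members were read from lists, in CCl4+EtOH vs OO. In that comparison 18.9% of all genes tested rose and 16.6% fell, to be set beside the count of each list. Of 27 checkpoint kinases, partners and regulators of p53, some acting for it and some against it, 26 were tested. Of these 7 rose and 1 fell, with a median log2 change of 0.16. The checkpoint kinase Chek1 averaged 4.92 ± 3.02 CPM in CCl4+EtOH kidneys and 0.93 ± 0.25 CPM in OO kidneys (SD, n = 3 each), and its adaptor Clspn rose by 3.44 ± 0.74 on the log2 scale. Hus1, of the clamp that activates the kinase Atr, fell by 0.68 on that scale (SE 0.12). Of 35 other p53 targets 31 were tested, 14 rose and 2 fell, with a median of 0.42. The cytokine Lif rose by 5.22 ± 0.73 on the log2 scale and the spindle protein Psrc1 by 2.84 ± 0.48.

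Beside 18.9% and 16.6% of all genes, 10 of 23 tested genes of intrinsic apoptosis rose and 2 fell, with a median of 0.20. They include effectors, such as Bak1 at 37.6 ± 4.29 CPM in CCl4+EtOH kidneys against 21 ± 1.30 CPM in OO kidneys and, in the same groups, Casp2 at 32.8 ± 4.11 against 20.2 ± 1.14 CPM, and the inhibitor of apoptosis Birc3 at 43.2 ± 19.5 against 13.2 ± 1.44 CPM (SD, n = 3 each). Among 20 genes that are further cell cycle brakes or belong to the RB family or DREAM, 8 rose and 2 fell (median 0.27). On the log2 scale Klf4, a factor that can induce Cdkn1a, rose by 1.13 ± 0.21. The Cdk1-inhibiting kinase Pkmyt1 rose by 1.65 ± 0.32 and Btg1, a relative of Btg2, by 0.93 ± 0.20. None of these named genes belongs to the RB family or DREAM.

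Of 26 cyclins, CDKs and proliferation genes 23 rose and none fell, with a median of 2.08, against 18.9% and 16.6% of all genes. Cdk1, the mitotic kinase, averaged 13.9 ± 12.4 CPM in CCl4+EtOH kidneys and 0.81 ± 0.29 CPM in OO kidneys, and Cdk4, the target of the INK4 inhibitors, 109 ± 18.8 and 70.1 ± 5.81 CPM (SD, n = 3 each). Of 25 tested secreted factors and markers of senescence 13 rose and 2 fell (median 1.03). The chemokine Cxcl1 rose by 4.92 ± 0.79, the protease inhibitor Serpine2 by 1.76 ± 0.30 and Tgfb1 by 1.09 ± 0.20. Lmnb1, a lamin that senescent cells are known to lose, rose by 1.22 ± 0.30 (adjusted p = 0.0067), and Glb1, the lysosomal galactosidase behind the usual senescence stain, changed by -0.47 ± 0.14 (adjusted p = 0.0193). Lmnb1 and Glb1 were picked after their values were seen.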

How the data were processed

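RNA of whole kidneys was sequenced. The authors deposited raw counts of reads for each gene symbol, without normalization, with GSNAP and the mm9 build named per the submitters' processing notes. The sources used here do not give the counting program, the annotation or the use of strand. The table had 14 columns for 15 samples, and 1 OO sample was not analysed here. Of 23893 rows, 27 held a date in place of a symbol (0.168% to 0.209% of counts) and were left out. No member shared identical counts with another row.

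The test was that of edgeR 4.0.16 (R 4.3.3) with filterByExpr by group, TMM scaling, robust quasi-likelihood F test in 1 fit of 14 libraries in 4 groups, Benjamini-Hochberg over 16105 genes, threshold 0.05. CPM use TMM-scaled libraries, and the SE of a log2 change is its size over the square root of F. Bounds at 2 SE are approximate. Each sample has its own number in the labels and is taken as a mouse, numbered here in accession order, so p-values measure the spread between these samples. Libraries of a group differed beyond sampling noise (chi-square per gene at least 10.3). Alternatives were other scalings, DESeq2 1.42.0, limma-voom (limma 3.58.1), other filters, other groupings and each library left out. A fit without EtOH replicates 1 to 3 was added after seeing the data. The pipeline was tested on simulated data. Members and lists were chosen with earlier results of these data known. Named genes are all members and, per list, the 3 with the smallest adjusted p in CCl4+EtOH vs OO, unless stated otherwise. The values of 1 such gene are not reported here. The list genes Trp53cor1, Pidd1, Trp53rkb, Trbc2 and Ly6g were not matched. Motifs were searched in RefSeq windows of GRCm38.p6, and overlaps read from GENCODE M21 on GRCm38, with no coordinate taken from the counts.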

Additional observations from a re-analysis of the deposited data

Results flagged for a closer look

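In 68 sets of 4 libraries, 1 library lay far from the other 3 in 6 cases, and chance alone gives about 1 in 20 for like libraries. The CCl4 group mixes the shorter and longer schedules, and its cases are all in mice of the longer one, replicates 3 and 4. The part of the schedule in them was not tested. In the CCl4 group these were Cdkn2c at 12.5 CPM in replicate 4 (others 8.73 to 9.27), Phlda3 at 15.1 CPM in replicate 3 (others 4.64 to 5.90), Polk at 17.8 CPM in replicate 4 (others 19.4 to 19.6) and Ddit4 at 22.1 CPM in replicate 4 (others 12.8 to 14.1). CCl4 replicate 3 also had the highest macrophage marker sum of its group, at 521 CPM, and without it Phlda3 was called higher in CCl4+EtOH than in CCl4 kidneys. In the EtOH group they were Ercc5 at 27.1 CPM (others 25.3 to 25.4) and Ei24 at 168 CPM (others 182 to 183), both in replicate 2.

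In the main fit the interaction passed the threshold for Eda2r at 2, Gtse1 at 2.54, Ddit4 at 1.33, Pmaip1 at 1.18 and Apaf1 at 1.08 on the log2 scale. These calls rested on single libraries: no member was called without CCl4+EtOH replicates 1 or 2 or without CCl4 replicate 1. The CCl4 group mixes the shorter and longer schedules, so schedule and time also enter this contrast.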

How the results depend on the processing

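No member's called change turned its direction in any of the alternatives run. Of 19 members called in CCl4+EtOH vs OO, 7 held in all 24 alternatives, namely Cdkn1a, Eda2r, Bbc3, Pmaip1, Btg2, Gadd45b and Apaf1, and 9 of 18 did so against CCl4. In the interaction 0 of 5 held in all 23 alternatives. Against EtOH this tally is not given, since an alternative left a lone EtOH library. With only the groups compared 11 members were called in CCl4+EtOH vs OO, against 19, and with the title number block 10. All genes called fell to 3276 and 3099, against 5706. With a library left out in turn, members called ran from 13 to 22 in CCl4+EtOH vs OO, from 10 to 21 against EtOH, from 10 to 25 against CCl4 and from 0 to 16 in the interaction. For the interaction DESeq2 called 9 members and limma-voom 16, against 5. Without EtOH replicates 1 to 3, 0 members were called against EtOH and 0 in the interaction, and the lone EtOH library is then assumed to vary like the other groups. All genes called in EtOH vs OO numbered 27 in edgeR, 350 in DESeq2, 223 in limma-voom and 3 to 154 with a library left out, and in the interaction 1468, 2496, 4810 and 292 to 4881. For CCl4 vs OO DESeq2 called 1 gene. Against EtOH the counts of all genes ran from 3195 to 7417 and against CCl4 from 3480 to 7396 with a library left out, against 5514 and 5610, and 3390 were called against EtOH with only the groups compared. The causes were not tested. Other scalings moved the median of all genes by at most 0.049. In the title number block OO libraries are all low and CCl4+EtOH libraries all high, and within the CCl4 group it is the schedule. No paired analysis was possible because each number in the labels belongs to a single mouse. Depth limits Cdkn2a, and Gtse1, Eda2r and Cdkn2b rest on few counts in OO libraries.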
